A study of Vitis vinifera with 7 samples.

Results

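Of the 28811 probes measured in Sauvignon blanc berries, 179 changed by less than 2-fold between green berries and veraison. Their signal in ripe berries was much lower. They were selected on the signals themselves. The veraison mean had to lie less than 1 on the log2 scale (2-fold) from the green mean, on either side. The ripe value had to lie at least 2 on the log2 scale (4-fold) below the lowest of the 3 veraison values. The 179 members made up 0.621% of the table and 0.810% of the 22102 probes that were flat by the first condition. Both steps of development were used in this choice, so the size of either step in the members is given as a description, with no test.

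Sauvignon blanc is a white wine cultivar of the grapevine, Vitis vinifera. Total RNA of berry tissue was labelled with Cy3 and hybridised to 1-colour NimbleGen arrays, which carry synthesised oligonucleotides. Stages are named on the Eichhorn-Lorenz scale of grapevine growth, and the design has 3 green arrays at stage EL-31, 3 veraison arrays at stage EL-34 and 1 ripe array, titled as harvest, at stage EL-38. The ground tissue of a stage was a single pool, and each array is a separate RNA extraction from it, so spreads between arrays are technical and do not cover vines, bunches or berries. No treatment or other genotype was part of the study. The labels do not say which parts of the berry were ground.

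A grape berry first grows while it is hard and green, storing organic acids and tannins. Veraison is the turning point at which the berry softens and sugar import, water uptake and aroma formation begin to change its composition. Ripening then continues to harvest, and transcripts that are steady across veraison can still decline during that later phase. In bulk tissue, fewer cells of a type and less RNA per cell cannot be told apart.

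None of the 28811 probe identifiers matched a gene identifier, symbol or accession in the RefSeq gene table given for the grapevine, which holds 29591 genes. The members are therefore described by identifier. Gene names, functions, positions and sequences are not given, and the tissue could not be checked against marker genes.

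The median log2 signal of the 7 arrays lay between 9.17 and 9.22, and no array was missing values. One veraison array stood apart. Extraction 2 was at least 1 below both other veraison extractions in 1334 of all probes (4.63%) and in 10 of the 179 members. It was nonetheless the highest of its stage in 54.7% of all probes and in 105 members (58.7%). Because the rule compares the ripe array with the lowest veraison value, a low extraction 2 keeps a probe out. Without that array 387 probes met the rule, 171 of the 179 members among them, and of the 216 added probes 185 had extraction 2 at least 1 below the other arrays of its stage.

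Before the loss the members lay above the dim end of the array. The rule largely requires this, since a dim probe has little room for a drop of 2. Their green means ran from 7.55 to 15.87 with a median of 11.72, and their veraison means from 7.97 to 15.51 with a median of 11.41. On the ripe array they ran from 4.90 to 13.40 with a median of 7.98, while the median of all probes there was 9.18. The ripe value lay below all 6 earlier values in 179 of 179 members. In 152 members it was at least 2 below the lowest green value. Of all probes, 37.9% had a ripe value below the lowest green value and 7.49% one at least 2 below it. The rule puts the ripe value of a member below every veraison value and, through its conditions together, below the green mean. The count of 179 is therefore nearly fixed by the choice, and nothing is read from either count. Measured from the veraison mean, the ripe difference ran from -6.76 to -2.10 with a median of -3.00. Over all probes the median of that difference was 0.08.

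**Figure D1:**
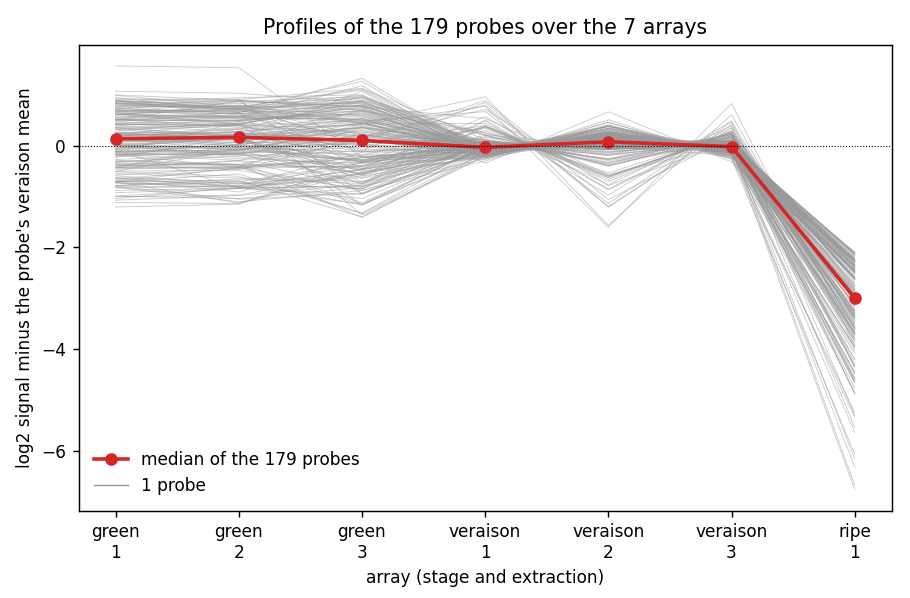
Log2 signal of each of the 179 probes minus its own veraison mean (vertical axis) on the 7 arrays (horizontal axis), with 1 grey line per probe and the median in red. The median stays between -0.03 and 0.16 on the green and veraison arrays and lies at -3.00 on the ripe array. Single lines dip at green extraction 3 and at veraison extraction 2.

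With the single ripe array assumed to vary like the others, limma called 179 of 179 members lower in ripe berries than at veraison, against 10% of all probes called in that direction (Benjamini-Hochberg adjusted p under 0.05 over all probes). Against green berries 179 were called lower, with 22.4% of all probes called in that direction. The rule sets the first contrast directly and bounds the second through its conditions together, so nothing is read from these counts. The standard error of the ripe minus veraison difference ran from 0.133 to 0.882 over the members, with a median of 0.221.

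The falls were spread unevenly above the limit of 2. From the lowest veraison value, 111 members lay 2 to under 3 lower on the log2 scale when ripe, 44 lay 3 to under 4 lower, 16 lay 4 to under 5 lower and 8 lay 5 or more lower. The median was -2.78, or 6.85-fold, and the largest reached 102-fold. Members close to the limit were common, and 33 of the 179 had a fall under 2.2. VitusP00159585, VitusP00037600 and VitusP00035013 were just inside, with -2.001, -2.002 and -2.011, and VitusP00029925, VitusP00223111 and VitusP00170176 were just outside with -1.997, -1.988 and -1.981. The cut between members and the rest therefore has no gap.

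**Figure D2:**
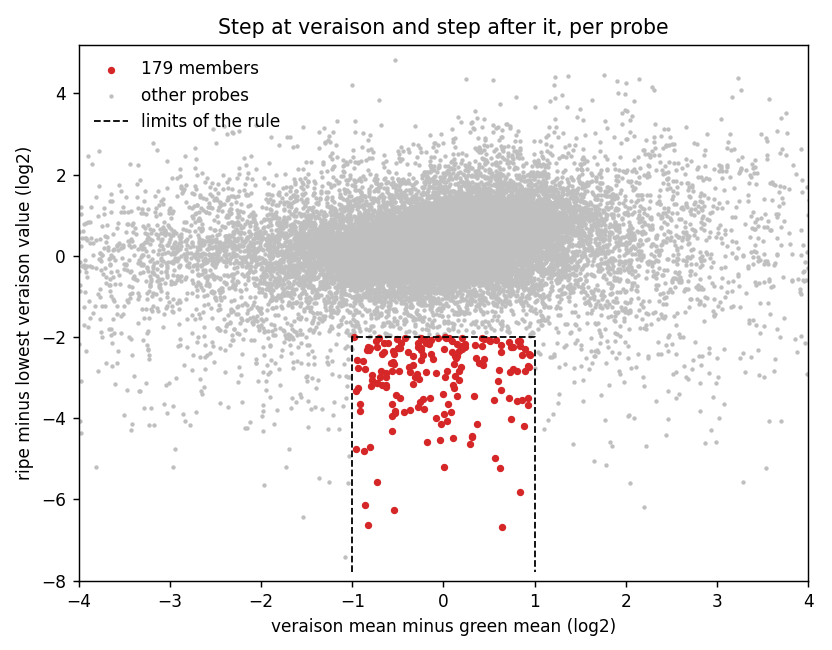
Each point is 1 probe, with the veraison mean minus the green mean on the horizontal axis and the ripe value minus the lowest veraison value on the vertical axis, both in log2 units. The 179 members, in red, fill the box at the bottom centre, and the cloud of other probes runs up to its edges without a gap. The axes leave out 571 of the 28811 probes.

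The largest falls belonged to probes that were bright through veraison, and on this scale a fall of that size needs a bright start. Across the members the fall was only weakly related to the veraison mean (r = 0.195). VitusP00016154 had 12.93, 12.80 and 13.12 on the green arrays, 13.60, 13.57 and 13.58 at veraison and 6.90 in ripe berries. Its 3 veraison values differed by 0.03 in all, and the ripe value lay 6.67 below them, a 102-fold drop in the deposited signal. VitusP00159601 had 12.74, 12.67 and 12.69 in green berries, 11.74, 12.08 and 11.80 at veraison and 5.11 in ripe berries. This ripe value, 99.5-fold below the lowest veraison value, was among the dimmest 25% of the ripe array, which ended at 6.20, and no detection limit is given for it. With 50 added before the logarithm the difference was -5.36, against -6.64 as deposited.

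VitusP00016979 was close to the top of the scale before its loss. It had 15.83, 15.90 and 15.77 in green berries, 15.34, 15.31 and 15.24 at veraison and 8.97 when ripe. The 77.3-fold difference is one of deposited signals, and the response of the array so near the top of its scale was not tested. VitusP00219662 had 13.94, 13.84 and 14.08 in green berries, 13.10, 13.06 and 13.12 at veraison and 6.93 when ripe. Both had already been slightly lower at veraison than in green berries, by differences of -0.54 and -0.86.

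The other 4 of the 8 largest falls differed in what preceded them. VitusP00089208 had 11.08, 11.13 and 11.16 in green berries, 11.71, 12.47 and 11.72 at veraison and 5.89 when ripe. VitusP00226193 had 14.37, 14.45 and 14.61 in green berries, 13.73, 13.83 and 13.69 at veraison and 8.11 when ripe. With 50 added, the ripe value of VitusP00089208 differed from its lowest veraison value by -4.95, against -5.81 as deposited. In VitusP00089208 the veraison values were all above the green ones, and in VitusP00226193 all were below. VitusP00152039 had 13.54, 13.54 and 12.78 in green berries, 13.87, 14.06 and 13.77 at veraison and 8.55 when ripe. VitusP00174709 had 12.39, 12.42 and 11.71 in green berries, 12.29, 11.85 and 12.42 at veraison and 6.65 when ripe. In both of these green extraction 3 was the low one of its stage, by about as much in each, with -0.76 and -0.70 against the mean of green extractions 1 and 2. The ripe value of each of the 8 was lower than any earlier value.

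**Figure D3:**
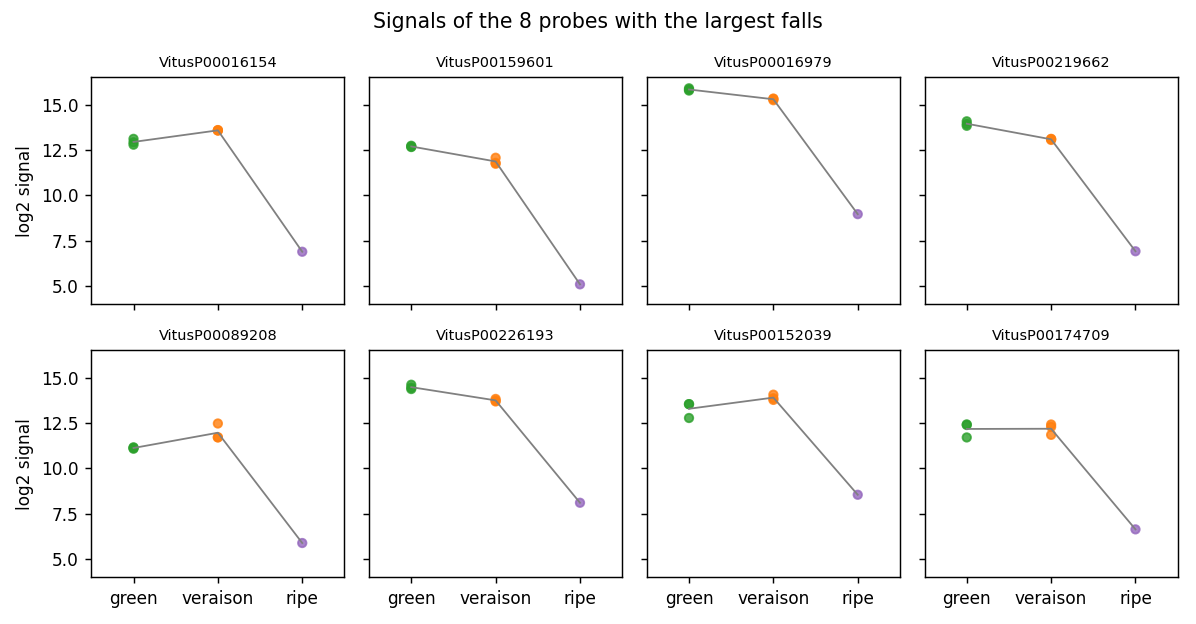
Log2 signal (vertical axis) of the 8 members with the largest falls at the green, veraison and ripe stages, with 1 point per array and a line through the stage means. In each panel the single ripe value lies between 5.11 and 8.97, below all green and veraison values.

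How low a member ended went with where it started. Across the 179 members, which share the same 7 arrays, the ripe value and the veraison mean had a Pearson's r of 0.870 and a Spearman's rho of 0.864, and part of this is set by the rule, which bounds the ripe value from above. The fall itself was only weakly related to the veraison mean (r = 0.195, rho = 0.139). Among flat probes with a veraison mean under 8, 2 of 9329 were members. The scale leaves a dim probe little room for a drop of 2. Of brighter flat probes, between 1.30% and 1.94% were members in each of the 4 classes of veraison signal above 8.

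Few of the brighter members reached the dim end of the array. The 44 members with a veraison mean of 8 to under 10 had a median ripe value of 6.14, and 24 of them ended in the dimmest 25% of the ripe array. The 62 members at 10 to under 12 ended at a median of 7.85, and 9 were in that range. The 55 members at 12 to under 14 ended at 9.76 and the 16 at 14 or more at 12.02, with none in that range. In all, 35 members ended in the dimmest 25% of the ripe array, 89 between the first quartile and the median, 45 between the median and the third quartile, and 10 in the brightest 25%.

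The ripe values of the brightest members were spread widely, and the 4 highest are given first. VitusP00200972 had 15.71, 15.68 and 15.77 in green berries, 15.54, 15.48 and 15.50 at veraison and 13.40 when ripe, the highest ripe value of any member. VitusP00261178 had 12.91 when ripe against 15.36, 15.09 and 15.38 at veraison, and VitusP00289900 had 12.44 against 15.08, 15.07 and 15.06. VitusP00252450 had 12.44 when ripe against 14.68, 14.74 and 14.71 at veraison. In these 4 the ripe array lay above its 75th percentile, 11.63. VitusP00178361 was among the 4 with the highest veraison means, with 15.19, 15.07 and 15.08, and ended at 10.91. Probes of similar brightness at veraison thus ended between 8.97, in VitusP00016979, and 13.40.

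**Figure D4:**
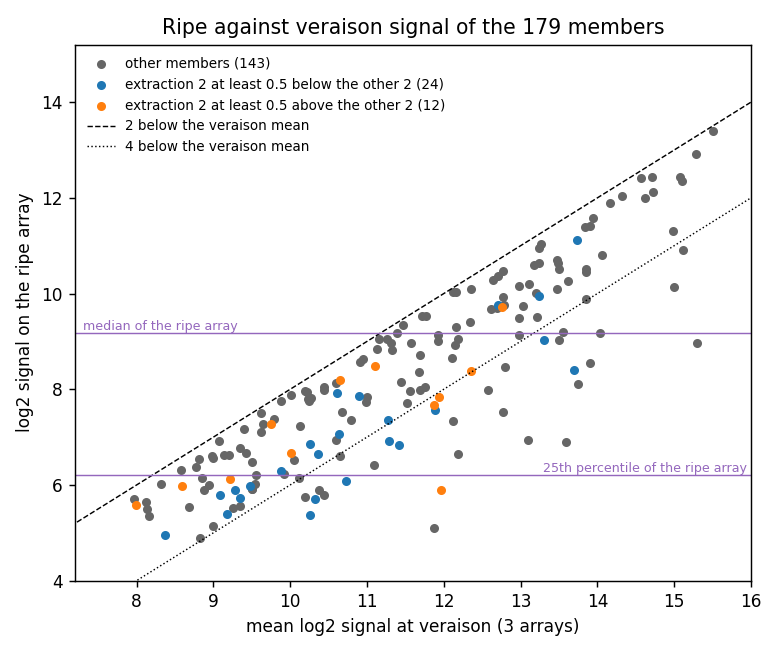
Log2 signal on the ripe array (vertical axis) against the mean of the 3 veraison arrays (horizontal axis) for the 179 members. Dashed and dotted lines mark 2 and 4 below the veraison mean, and horizontal lines mark the 25th percentile (6.20) and the median (9.18) of the ripe array. The 24 members with a low extraction 2 and the 12 with a high one lie among the 143 others.

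Before the loss, the members were not all unchanged. The veraison minus green difference had a median of -0.13 and quartiles of -0.55 and 0.34, and 82 members were above the green mean and 97 below it. Without veraison extraction 2 the median was -0.06. Limma called 85 of the 179 members (47.5%) between veraison and green berries, against 48.2% of all probes in either direction; the rule limits the size of this difference, so nothing is read from the count. Of the called members 33 were higher and 52 lower at veraison. In 104 members the 3 veraison and the 3 green arrays did not overlap (58.1%, against 59.6% of all probes and 47.8% of flat probes). The difference was under 0.25 in 56 members (31.3%) and under 0.5 in 91 (50.8%). Over all probes the shares were 32.3% and 54.5%, and over flat probes 42.1% and 71.0%. Of the flat probes 42.2% had a veraison mean under 8, against 1.12% of members, so nothing is read from these shares.

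Some members were close to perfectly flat. VitusP00279950 had 8.95, 9.00 and 9.02 in green berries, 8.86, 9.13 and 9.01 at veraison and 6.56 when ripe. VitusP00285337 had 10.56, 10.48 and 10.86 in green berries, 10.55, 10.88 and 10.50 at veraison and 6.60 when ripe. In both the veraison and green arrays overlapped, with differences of 0.01 between the means. VitusP00117189, whose means also differed by less than 0.01 (-0.004), is a different case, since its green arrays read 10.22, 10.15 and 8.13. The closeness of its means rests on green extraction 3, since its veraison values, 9.30, 9.77 and 9.43, lay below green extractions 1 and 2. In this probe the difference between the ripe array and the lowest veraison array was -3.39, or -2.63 with 50 added.

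At the edges of the window were members that had moved by almost 2-fold at veraison. VitusP00131822 had 10.60, 10.56 and 10.62 at veraison, against 9.60, 9.55 and 9.77 in green berries, and 8.13 when ripe. VitusP00266757 had 9.05, 9.28 and 9.09 at veraison, against 8.32, 8.03 and 8.25 in green berries, and 6.62 when ripe. In both the ripe value was below the green level as well. VitusP00110199, the other of the 3 highest above green, had 10.64, 9.59 and 10.53 at veraison, so that extraction 2 was close to green berries, which read 9.18, 9.27 and 9.49.

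On the lower side, VitusP00159585 had 11.54, 11.97 and 11.64 at veraison, against 12.79, 12.75 and 12.56 in green berries, and 9.53 when ripe. VitusP00077434 had 12.82, 13.09 and 13.03 at veraison, against 13.88, 13.71 and 14.25 in green berries, and 9.49 when ripe. VitusP00147771 had 12.10, 12.15 and 12.10 at veraison, against 13.68, 13.65 and 11.89 in green berries, so its green arrays lay on both sides of the veraison values. These 3 lay just inside the window, at -0.983, -0.964 and -0.958. VitusP00212075, VitusP00033012 and VitusP00181133, with late falls of 2 or more, lay just outside it at -1.002, 1.006 and -1.016.

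Late loss was not limited to flat probes. In all 542 probes had a ripe value at least 2 below the lowest veraison value. The members were 33.0% of them, 209 had been lower at veraison by 1 or more, and 154 had been higher by 1 or more. As a share of each kind of probe, a late loss was found in 0.810% of flat probes, in 5.76% of the 3631 probes lower at veraison and in 154 of the 3078 probes higher at veraison. Dim probes, with little room for a drop of 2, were counted in every kind, so these shares were not compared. All 3 sets begin at the same limit of 2, so their median falls, -2.78 in members, -2.72 after an earlier drop and -2.74 after an earlier increase, were not compared. Falls of at least 4 made up 13.4% of members, 14.4% of the probes with an earlier drop and 18.2% of those with an earlier increase. Flat probes with the opposite late step, a ripe value at least 2 above the highest veraison value, numbered 111.

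The spread between green extractions did not enter the rule, apart from their mean, and it was wider in the members. Green extraction 3 lay at least 0.5 below both other green extractions in 22 members (12.3%) and at least 0.5 above both in 11 (6.15%). Among the 12596 other flat probes with a veraison mean of 8 or more the shares were 2.40% and 0.738%. Extractions 1 and 2 of the green stage were at least 0.5 apart in 2 members (1.12%), against 1.08% of those other probes, so the wider spread was that of extraction 3. Probes that were not flat varied more in this extraction with or without a late loss. Extraction 3 was low in 28 of the 209 late losses after an earlier drop (13.4%) and high in 3 (1.44%), against 9.68% and 1.41% of the 1560 probes with such a drop, no late loss and a veraison mean of 8 or more. It was low in 20 of the 154 late losses after an earlier increase and high in 11 (7.14%), against 8.48% and 49 of the 2454 such probes with no late loss. Members are not replicates and no test was made of these shares.

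The 4 members with the widest gap came as pairs of neighbouring identifiers. VitusP00147771 and VitusP00147777 had green values of 13.68, 13.65 and 11.89 and of 12.60, 12.60 and 10.74. VitusP00117171 and VitusP00117189 had 9.72, 9.50 and 7.90 and 10.22, 10.15 and 8.13. In each pair extraction 3 was low by a similar amount, with -1.78 and -1.86 in the first pair and -1.71 and -2.05 in the second. At veraison the same probes varied by 0.05 to 0.47, and when ripe they stood at 7.34, 8.72, 6.91 and 5.91.

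At veraison, extraction 2 was at least 0.5 below both others in 24 members (13.4%) and at least 0.5 above both in 12 (6.70%), against 10.2% and 6.63% of the other flat probes with a mean of 8 or more. A large deficit is excluded in part by the rule. The widest range over veraison arrays was that of VitusP00125508, with 11.32, 8.79 and 10.97, followed by VitusP00266404 with 12.05, 9.67 and 12.10 and VitusP00174772 with 10.02, 7.97 and 9.52. In all 3 extraction 2 lay between the other veraison arrays and the ripe array, whose values were 6.65, 7.36 and 5.40. Most members were tighter, since the SD at veraison was under 0.1 in 57 members, 0.1 to under 0.5 in 102 and 0.5 or more in 20 (n = 3 arrays).

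Some members had neighbouring identifiers. With the table in identifier order, 57 of the 179 members (31.8%) had another member within 10 rows, while 10.2% of all probes had a member that near. They formed 20 runs, 12 of which were pairs. What the order of identifiers stands for is not given in the sources used here, and whether neighbouring probes share sequence or a genome region was not tested. The pattern was noticed in these data. The 2891 other probes within 10 rows of a member included 59 (2.04%) with a ripe value at least 2 below the lowest veraison value, against 1.18% of the 25741 non-members farther away. Over the whole table the ripe minus veraison difference of adjacent rows correlated weakly (r = 0.136, n = 28810 pairs), and at 10 rows apart the value was 0.030.

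The longest run held 10 members among 22 consecutive probes, from VitusP00174599 to VitusP00174807. Its members had very different signals at veraison. VitusP00174708, the brightest, had 8.39 when ripe against 14.08, 12.93 and 14.09 at veraison, and VitusP00174783 had 9.03 against 13.51, 13.51 and 13.50. VitusP00174807, one of the dimmest, had 5.79 when ripe against 9.59, 8.23 and 9.43 at veraison. The ripe minus veraison differences of the 10 members ran from -5.54 to -3.29 with a median of -4.42, where that of all members was -3.00.

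The members of this run also shared the pattern within stages. Green extraction 3 was the lowest of its stage in 10 of 10, by 0.5 or more in 5, and veraison extraction 2 was the lowest in 8 of 10, by 1 or more in 6. In all, 10 of the 179 members had so low an extraction 2. VitusP00174739 shows both, with 12.03, 12.12 and 11.51 in green berries, 12.29, 10.35 and 11.59 at veraison and 6.84 when ripe. Without the 10 members of the run, green extraction 3 was still low by 0.5 or more in 17 of the other 169 members (10.1%). Over all probes, green extraction 3 was the lowest of its stage in 34.8%, by 0.5 or more in 4.92%, and veraison extraction 2 was the lowest in 33.2%. In the 12 other probes of the run, green extraction 3 was the lowest in 6 and veraison extraction 2 in 5.

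The 12 other probes of the run mostly had little signal to lose. The veraison mean was under 8 in 9 of them, and their median ripe minus veraison difference was -0.17. VitusP00174794 was bright and unchanged, with 13.39 when ripe against 13.28, 13.46 and 13.28 at veraison. VitusP00174656 and VitusP00174758 were also at least 2 lower when ripe, but had already been lower at veraison than in green berries by more than the window allows, with differences of -1.90 and -1.89.

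**Figure D5:**
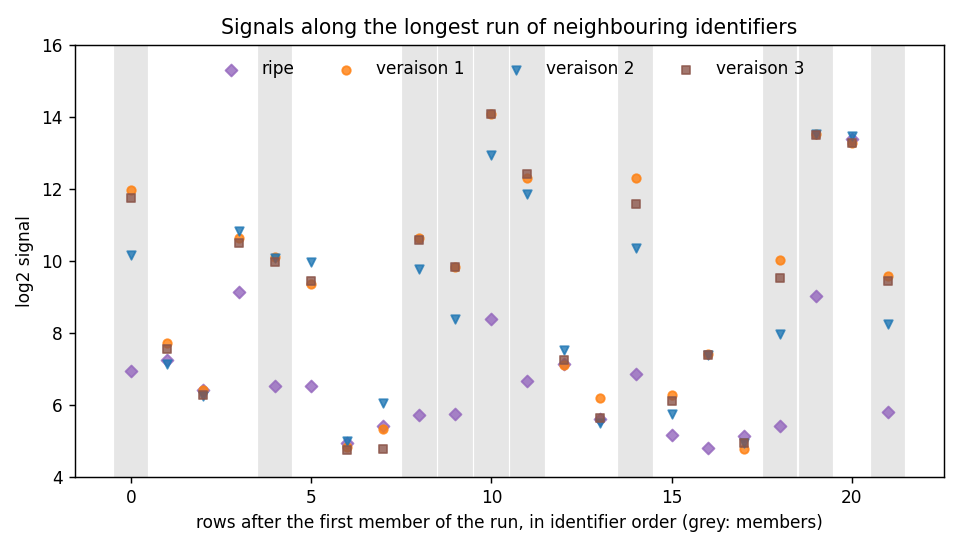
Log2 signal (vertical axis) of the 22 probes from VitusP00174599 to VitusP00174807 in identifier order (horizontal axis, rows after the first), with 1 symbol for the ripe array and 1 per veraison array; grey bands mark the 10 members. In the members the ripe symbol lies at 5.40 to 9.03, with a difference of -2.44 or beyond from the lowest veraison symbol, and in 8 of them veraison extraction 2 is the lowest of its stage.

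A second group lay between VitusP00266288 and VitusP00266757, with 8 members among 49 probes, as runs of 3 and of 5. Veraison extraction 2 was the lowest array of its stage in 2 of the first 3 and in 3 of the other 5, against 33.2% of all probes. VitusP00266675 had 10.68, 8.67 and 10.30 at veraison and VitusP00266732 had 13.09, 12.11 and 12.89, with 6.29 and 9.76 when ripe. VitusP00266666, 1 of the 5, was steady at veraison with 13.14, 13.18 and 13.20 and stood at 10.60 when ripe. Green extraction 3 was the highest of its stage in 4 of the 5, whereas in the run of 3 it was the lowest in 2 and the highest in 1.

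Shorter runs were as mixed in level. VitusP00106845, VitusP00106860 and VitusP00106871 occupied 3 consecutive rows and stood at 9.67, 9.05 and 4.96 when ripe, against veraison means of 12.61, 12.18 and 8.37. VitusP00204987, VitusP00204996 and VitusP00205019, with 10.09, 10.04 and 7.94 when ripe, lay near the limit of the rule, and green extraction 3 was the highest of its stage in all 3. VitusP00159585, VitusP00159601 and VitusP00159636 joined a member at the limit to 1 of the largest falls within 6 rows. The row next to VitusP00016979 held VitusP00016977, which had 5.74 when ripe against 13.54, 13.17 and 13.59 at veraison and missed the window by a veraison minus green difference of -1.09. At 2 rows from VitusP00175465, with 10.13 when ripe against 15.01, 14.93 and 15.05, lay VitusP00175485, which missed it by -1.04.

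The profile closest to the members' median among non-members was that of VitusP00002742, at a Euclidean distance of 0.913 over the 7 arrays with each profile centred on its veraison mean. VitusP00246208 and VitusP00055377 followed at 0.974 and 1.02. The members' own distances to their median profile had a median of 1.25, so the typical member lay farther from it than these 3. Each of the 3 missed the rule only by the size of the late fall, with -1.92, -1.92 and -1.97 from the lowest veraison value.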

How the data were processed

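Each of the 7 arrays gave 1 log2 signal per probe, as deposited by the authors for 28811 identifiers. RMA is named in the submitters' processing notes, with no version. The log base was read from the values, which stay under 16. Beyond that name, background correction, scaling between arrays and the summary over oligonucleotides are not described in the sources used here. The deposited scaling was kept, no detection flag was used, and arrays give no read depth, so their number limits precision. All columns matched a sample. Stage differences were fitted with limma 3.58.1 in R 4.3.3 (lmFit, eBayes, stage as the only term, 7 arrays, Benjamini-Hochberg over 28811 probes). The fit was tried on simulated data in which the ripe array varied like the others, so that assumption was not checked. The ripe array takes the pooled spread. Tables and plots used Python 3.11.15.

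The members, lists and limits were chosen with earlier results of these data known. Named probes were taken by rank of fall, ripe value, veraison mean, veraison minus green difference and veraison range, by nearness to each limit and by likeness. Those in the paragraphs on green extraction 3 and on neighbouring identifiers were chosen after their values were seen. Planned lists by product name were not computed, since no identifier had a name. Alternatives were other scalings, limits, variances, thresholds, a replicate block and leaving out each array.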

Additional observations from a re-analysis of the deposited data

How the results depend on the processing

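Of 74 recomputed counts and medians, 66 stayed within 1.5 times the reported count or within 0.173 of the reported median. The latter limit is the median over members of the SD of the veraison arrays. Among the 74 are the calls of members lower when ripe than at veraison or in green berries. The rule largely fixes these calls, so they say little about stability. The number of members, 179, was 322 with a fall of at least 1.5, 68 with one of at least 3, 91 with a window of 0.5 and 284 with the veraison mean in place of the lowest value, each by construction. Leaving out single arrays gave 181 to 387, the highest without veraison extraction 2. The 75th percentile of the deposited arrays already lay between 11.57 and 11.64, which left little to rescale. The number of members was 175 after quantile normalization (173 shared) and 184 after scaling to the 75th percentile (178 shared). It was 141 with 50 added before the logarithm. That addition, which compresses dim values, moved the median ripe minus veraison difference of members from -3.00 to -2.78. Members called between veraison and green, 85, numbered 54 at an adjusted p of 0.01, which called 34.5% of all probes. The test against a 2-fold change (limma's treat) called 0, and 0 at an unadjusted p under 0.05, against 96 without that limit; the window allows no other outcome. With the replicate number as a block (a paired fit), 179 members were called lower in ripe berries than at veraison (5.52% of all probes) and 72 between veraison and green (42.6% of all probes). Deviations of equally numbered arrays correlated at -0.21, -0.12 and 0.05, and the replicate number was not taken as a pairing. Of 216 recomputed differences of the 36 probes named by rule, 44 moved by more than 1 SD of the replicates, and the sign of most was fixed by how the probes were chosen. The ripe stage has 1 array, and dim and saturated signals are not marked.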
